A study of Mus musculus with 20 samples.

Results

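Hearts of 30-month-old mice fed alpha-tocopherol were compared with hearts of 5-month-old mice on the control diet, to ask which transcripts differ from the young heart after long supplementation. The comparison takes 10 of the 20 arrays of the series: the 5 arrays of the old alpha-tocopherol group minus the 5 of the young control group, over every probe set that is not an array control. All of these animals were male B6/C3H F1 hybrid mice, housed singly, with 1 heart and 1 array each. The alpha-tocopherol diet held 1000 mg/kg and was given from 15 months of age. Old controls (5 hearts, 30 months, control diet) serve as a second reference, and 2 of them are labelled hybrid without the F1 mark. Another 5 old hearts, given alpha- and gamma-tocopherol, are not compared here. They enter the shared estimate of spread, the mean brightness of each probe set and the fits that allow for array-wide measures. No young mice were supplemented, so age and diet cannot be told apart in the comparison with young hearts. In whole hearts, fewer cells of a type and less RNA per cell cannot be told apart.

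Alpha-tocopherol is the form of vitamin E that the liver preferentially returns to the circulation, and it breaks chains of lipid peroxidation in membranes. The adult heart draws most of its energy from fatty acids, which enter mitochondria through the carnitine shuttle and are broken down by beta-oxidation, and nuclear receptors of the PPAR family switch on many genes of this route. Aged rodent hearts are known for a shift away from fatty acid use.

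Values are log2(intensity + 58), where the added 58 compresses the differences of dim probe sets. A difference is given on this scale ± its standard error with 5 animals per group, and is called when the adjusted p-value (limma, two-sided, Benjamini-Hochberg over 12422 probe sets) is below 0.05. Of these probe sets 1108 (8.92%) were called against young hearts, 511 (4.11%) of them higher and 597 (4.81%) lower in old alpha-tocopherol hearts. For reference, 290 (2.33%) were called between old and young controls and 1653 (13.3%) between alpha-tocopherol and old control hearts. Gene groups are read against the 5663 named genes above a minimum brightness, of which 298 (5.26%) were called higher and 452 (7.98%) lower against young hearts, with a median difference of -0.01. Between old and young controls the shares of the same genes were 2.15% higher and 1.85% lower.

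The arrays of the alpha-tocopherol group stood apart from both control groups in 3 array-wide measures, of which only the first comes from RNA added to the sample. The added bacterial hybridization controls lay between 13.32 and 13.78 in that group, between 12.51 and 13.04 in young controls and between 12.55 and 12.92 in old controls. The 18S ribosomal RNA signal lay between 12.21 and 12.74, against 10.13 to 10.77 in young controls. The 10th percentile of each array lay between 6.96 and 7.00, against 6.73 to 6.83. In an exact two-sided permutation test each of these 3 differences had p = 0.0079, the smallest that 5 against 5 allows (0.0184 adjusted over 7 measures). The 3′ minus 5′ signal of the Gapdh control, a sign of RNA quality, lay between -0.09 and 0.19 in supplemented hearts and between -0.15 and -0.06 in young ones, which overlap (difference 0.14, exact permutation p = 0.0238, adjusted 0.0417). In old controls it lay between -0.15 and 1.21. When a fit allowed for the hybridization control signal of each array, 122 probe sets were called against young hearts, and 29 when it allowed for 18S, of which 108 and 27 were also called without it. These fits are named the hybridization control covariate and the 18S covariate. In any gene list at most 5 members were called in 1 direction with the first and at most 2 with the second. Because these levels follow the group, the array differences and the group cannot be told apart. Of 90 called genes in the set chosen for naming, 6 were called in both covariate fits: Ucp3, Angptl4, Acot1, Mt2, Tnk2 and Tmem250-ps. The supplemented Tnk2 readings were dim, as given below. Cardiac identity was clear in these arrays, with 11 of 11 heart muscle markers at or above the 97.4th percentile of probe sets. Young control 3 carried a summed T cell marker intensity of 68283, against 8881 to 10508 in the other young hearts. Its sums were also the highest for B cell markers (38015 against 10194 to 12573) and for macrophage and myeloid markers (65177 against 38915 to 45342). The counts that moved most without this heart are given beside their groups.

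**Figure D1:**
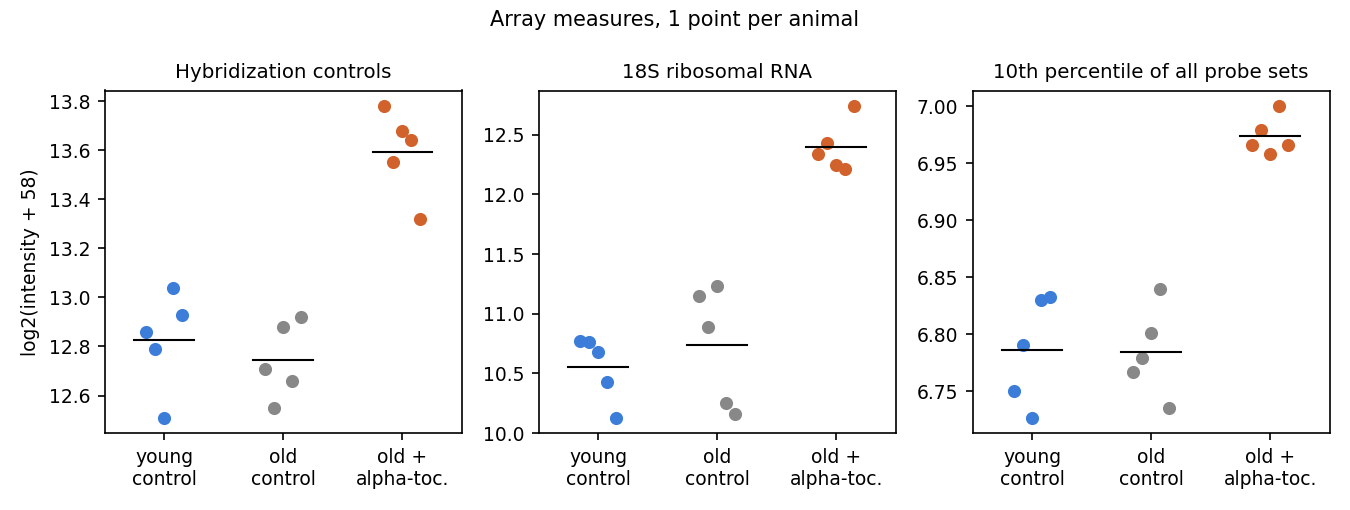
Array-level measures, as log2(intensity + 58), for the 5 young control, 5 old control and 5 old alpha-tocopherol hearts; each point is 1 animal and the line is the group mean. The alpha-tocopherol arrays lie above all young and old control arrays in all 3 panels, with 18S at 12.21 to 12.74 against 10.13 to 10.77 in young controls.

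Genes of fatty acid use were lower in supplemented old hearts than in young ones. Ucp3, a mitochondrial carrier raised by fatty acids, read 12.06, 11.95, 11.52, 12.12 and 12.25 in the young hearts and 9.72, 9.54, 9.52, 10.15 and 9.37 in the alpha-tocopherol hearts. The groups lay far apart, and the difference was -2.32 ± 0.19 (adjusted p = 1.8e-07). Angptl4, a secreted inhibitor of lipoprotein lipase, read 12.06, 11.76, 11.34, 11.66 and 11.48 in young hearts. It read 10.01, 10.01, 9.83, 9.95 and 10.01 in the supplemented hearts, which differed little among themselves. Its difference was -1.70 ± 0.14 (adjusted p = 1.8e-07), and its 2 other probe sets differed by -2.70 and -0.35. Pdk4, the kinase that shuts down pyruvate dehydrogenase when fat is burned, read 15.14, 15.20, 15.13, 15.61 and 15.54 in young hearts. In the supplemented hearts it read 13.50, 12.79, 12.08, 13.79 and 13.78, lower in every animal but widely spread (difference -2.14 ± 0.29, adjusted p = 7.4e-05). Acot1, a cytosolic acyl-CoA thioesterase, lay between 11.37 and 12.17 in young hearts and between 10.25 and 10.99 in supplemented ones (-1.43 ± 0.20, adjusted p = 7.7e-05).

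Of 24 measured fatty acid oxidation genes 10 fell and 0 rose, with a median difference of -0.33. Between old and young controls 12 of the same genes fell and 0 rose, with a median of -0.42. Cpt1a, which makes acylcarnitines at the outer mitochondrial membrane, read 11.58, 11.38, 12.32, 11.84 and 12.36 in young hearts and 10.90, 10.18, 9.42, 10.43 and 10.49 in supplemented hearts. Its difference was -1.61 ± 0.22 (adjusted p = 9.9e-05). Acaa1b, a peroxisomal thiolase, fell by 1.50 ± 0.32 (adjusted p = 0.0057), from 10.17 to 10.77 in young hearts to 8.10 to 9.64. Named after their values were seen, the carnitine acetyltransferase gene Crat (-0.88 ± 0.13) and Decr1, the reductase needed for unsaturated fatty acids (-0.84 ± 0.15), were also lower. Cpt2 (-0.46 ± 0.12) and the carnitine carrier gene Slc25a20 (-0.39 ± 0.12), the inner steps of the carnitine route, were named in the same way and fell with smaller estimates; the difference between steps was not tested. The Cpt2 call was lost in 4 and the Slc25a20 call in 7 of 10 fits without 1 animal. Without young control 3, 13 members of this list were lower. The count was 4 with the hybridization control covariate and 1 with the 18S covariate.

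Of 26 PPAR-responsive and lipid handling genes 7 fell and 1 rose in supplemented hearts, while 9 fell and 0 rose between old and young controls. Plin4, a lipid droplet coat protein, lay between 11.85 and 12.24 in young hearts and between 10.73 and 11.48 in supplemented hearts (-1.03 ± 0.18, adjusted p = 0.00074). Lipe, the hormone-sensitive lipase (-0.98 ± 0.19), Vldlr, a receptor for triglyceride-rich lipoproteins (-0.90 ± 0.17), and Cd36, the main fatty acid uptake protein of heart muscle (-0.62 ± 0.15), were lower too and were named after their values were seen. Fasn, the fatty acid synthase, was the member that rose. It read 13.13, 12.10, 11.79, 10.42 and 12.30 in supplemented hearts against 10.18 to 10.73 in young ones (1.50 ± 0.43, adjusted p = 0.033), so 1 supplemented heart lay within the young range. The Fasn call was lost in 8 of 10 fits that left out 1 animal. Hk2, the hexokinase that holds glucose in muscle cells, rose (0.63 ± 0.12, adjusted p = 0.0015), as did Eno3, the muscle enolase (0.45 ± 0.13), while Ldha, which converts pyruvate to lactate, fell (-0.40 ± 0.11). These were the 3 called among 16 genes of glycolysis and glucose uptake. Gapdh is not among those 16. Its array control probe sets lay higher in supplemented than in young hearts without overlap, the 3′ one at 16.72 to 17.25 against 16.14 to 16.47. Their levels were not tested. The Eno3 call was lost without young control 3, alpha-tocopherol heart 2 or 3, and the Ldha call without young control 1 or 2, alpha-tocopherol heart 3 or 4.

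**Figure D2:**
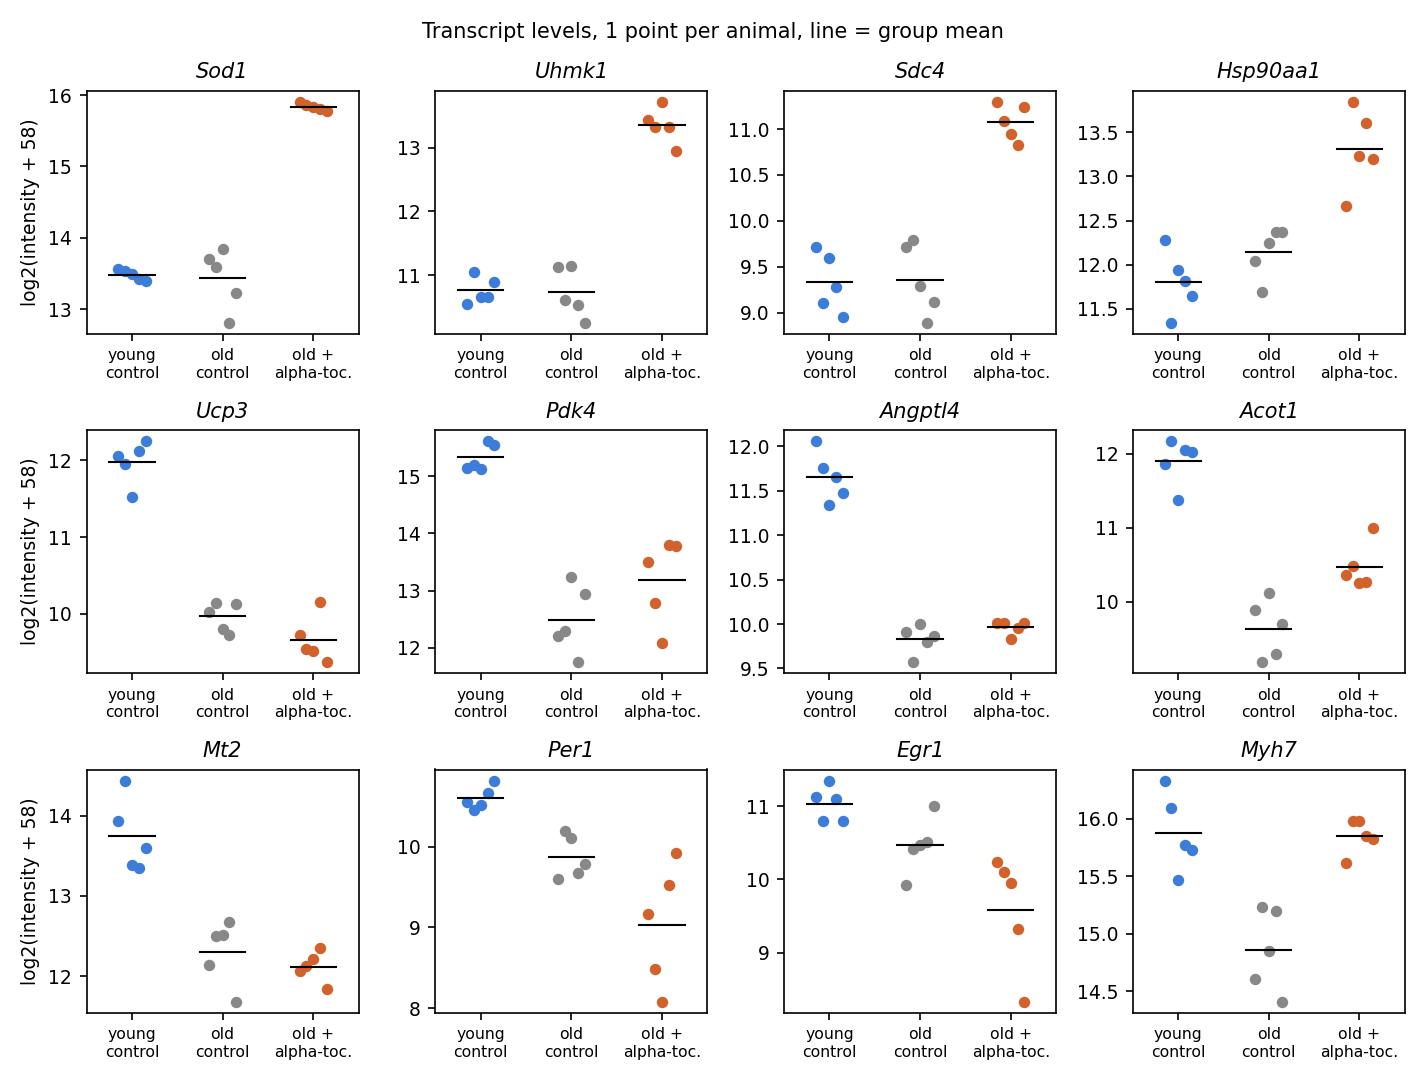
Levels of 12 genes as log2(intensity + 58) in young control, old control and old alpha-tocopherol hearts; each point is 1 animal, the line is the group mean, and each panel has its own axis. Ucp3, Angptl4, Acot1 and Mt2 are low in both old groups, Sod1, Uhmk1 and Sdc4 are high only on the plotted alpha-tocopherol arrays, and Myh7 is low in old controls, where it lies between 14.41 and 15.23.

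Genes of the respiratory chain and the ATP synthase moved slightly upward: 8 of 56 measured genes rose and 0 fell, with a median of 0.12. The complex I subunit gene Ndufb8 read 15.62, 15.51, 15.32, 15.49 and 15.46 in young hearts and 16.08, 16.04, 16.22, 15.94 and 15.99 in supplemented hearts. These ranges did not overlap, and the difference was 0.57 ± 0.09 (adjusted p = 0.00042). Uqcrc2, a core protein of complex III (0.54 ± 0.10), and Atp5k, a subunit of the ATP synthase (0.57 ± 0.13), rose by similar amounts. The rise of this list was not stable: 3 members rose without young control 3, 4 without young control 1, 5 without young control 4 or alpha-tocopherol heart 1, 0 rose with the hybridization control covariate, where the list's median was -0.10, and 0 with the 18S covariate. In the sarcomere list 4 of 19 genes rose and 0 fell. Cardiac actin Actc1 (0.43 ± 0.10), the Z-disc protein gene Ldb3 (0.42 ± 0.09) and the small heat shock protein gene Cryab (0.34 ± 0.11) were among them, and the median of the list turned from 0.12 to -0.06 with the hybridization control covariate. The count of 4 was not stable: 2 rose without young control 3 or 4, 2 with quantile normalization, where the list's median was 0.003, and 0 with either covariate. The Cryab call was lost in 7 of 10 fits without 1 animal and with quantile normalization. Myh6, the fast cardiac myosin of the adult mouse, differed by 0.30 ± 0.11 (adjusted p = 0.075). Of the heart stress markers, Nppa differed by 0.12 ± 0.13 and Nppb by 0.55 ± 0.26, neither called.

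Sod1, the cytosolic superoxide dismutase that uses copper and zinc, gave the largest called rise among the antioxidant genes. It read 13.56, 13.54, 13.49, 13.42 and 13.40 in young hearts and 15.91, 15.86, 15.83, 15.80 and 15.78 in supplemented hearts. Every supplemented heart lay above every young one by a wide margin (2.36 ± 0.27, adjusted p = 7.8e-06). Old controls read 13.70, 13.59, 13.85, 12.81 and 13.22, near the young level, and the difference between alpha-tocopherol and old controls was 2.40 ± 0.27 (adjusted p = 8.2e-06). Sod1 was among the largest rises with alpha-tocopherol, and the test between old groups uses the same alpha-tocopherol values, which tilts it. With the 18S covariate the difference from young hearts was 0.87 (adjusted p = 0.072), and with the hybridization control covariate 2.46 (adjusted p = 0.0081). Among 38 antioxidant genes 4 rose and 1 fell. Without young control 3 these counts were 1 and 2, and 2 rose without any 1 of young controls 4 and 5 and alpha-tocopherol hearts 1, 3 and 5; 2 fell without alpha-tocopherol heart 5. Gstm1, a glutathione transferase, rose by 0.32 ± 0.09 (adjusted p = 0.034), a call lost with quantile normalization and in 7 of 10 fits without 1 animal. Selenow, a small selenoprotein, rose by 0.73 ± 0.22, a call lost with quantile normalization and in 8 of 10 such fits. The mitochondrial and extracellular dismutases Sod2 (0.12 ± 0.12) and Sod3 (0.30 ± 0.15), catalase Cat (0.23 ± 0.12) and the glutathione peroxidases Gpx1 (0.15 ± 0.12) and Gpx3 (0.01 ± 0.13) were not called; the second Cat probe set read -0.93. The member that fell was Mt2, described with the hormone-responsive genes.

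Uhmk1, a kinase with an RNA-binding motif, read 10.55, 11.06, 10.67, 10.67 and 10.90 in young hearts and 13.43, 13.32, 13.72, 13.32 and 12.95 in supplemented hearts (2.58 ± 0.34, adjusted p = 5.4e-05), but its other probe set differed by 0.26. Nipsnap2, a mitochondrial protein gene, rose by 2.04 ± 0.24, and the surface proteoglycan gene Sdc4 by 1.75 ± 0.24, from 8.95 to 9.72 in young hearts to 10.83 to 11.30. Both lay at the young level in old controls, at -0.01 ± 0.24 and 0.03 ± 0.24. Actb, cytoskeletal beta-actin, rose by 1.96 ± 0.25, and its second probe set differed by 2.38. The 3 beta-actin control probe sets of the array, however, had means of 15.26 to 15.41 in young hearts and 15.40 to 15.60 in supplemented hearts, with overlapping ranges, so the Actb readings disagree between probe sets. With the 18S covariate Uhmk1 (0.99), Nipsnap2 (0.80), Actb (1.15) and Sdc4 (0.64) were not called. Tmem250-ps, annotated as a pseudogene, read 13.21, 13.21, 12.96, 13.51 and 13.53 against 11.58 to 12.08 in young hearts. Its rise of 1.50 ± 0.15 (adjusted p = 1.5e-06) was called in both covariate fits.

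Chaperone genes rose in part. Of 18 cytosolic heat shock genes 4 rose and 0 fell. Hsp90aa1, the inducible form of the Hsp90 chaperone, read 12.28, 11.34, 11.94, 11.81 and 11.64 in young hearts and 12.66, 13.85, 13.23, 13.61 and 13.20 in supplemented hearts (1.51 ± 0.26, adjusted p = 0.00072). Hsph1, a nucleotide exchange factor for Hsp70, rose by 0.97 ± 0.16 and was also higher in old controls (0.80 ± 0.16). The constitutive Hspa8 rose by 0.49 ± 0.11. Of 20 endoplasmic reticulum stress genes 3 rose: the disulfide isomerase gene Pdia3 (1.33 ± 0.36), the transcription factor gene Atf4 (0.48 ± 0.14) and Asns, the asparagine synthetase. The Atf4 call was lost in 6 of 10 fits without 1 animal, the Pdia3 call without young control 1 or 2, and 1 member of the list rose without young control 1. The median of this second list turned from 0.11 to -0.07 with the hybridization control covariate. Asns read 11.89, 12.00, 11.45, 11.72 and 11.93 in young hearts and 12.50, 12.39, 12.46, 12.16 and 12.72 in supplemented hearts, without overlap (0.65 ± 0.13, adjusted p = 0.0024). Old controls lay at 11.72 to 12.07.

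Atf4 is known to bind an amino acid response element in front of Asns, and the promoter is shown for that reason. The rise of Asns was called in all 10 fits without 1 animal, that of Atf4 in 4 of them. The 120 bases just before the Asns start (RefSeq, GRCm38.p6, minus strand, chr6:7693210-7693329) are given 5′ to 3′, with the letters TGATGAAAC, searched on both strands, in capitals.
Asns: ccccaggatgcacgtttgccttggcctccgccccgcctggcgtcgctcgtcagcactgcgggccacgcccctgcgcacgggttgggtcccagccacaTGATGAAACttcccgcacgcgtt
The element begins 23 bases before the start. The same 9 letters were found in 70 of 32851 promoter windows of 250 bases (0.213%). The match describes the sequence and says nothing of binding in these hearts.

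Genes that respond to glucocorticoids were lower: 9 of 19 fell and 0 rose, with a median of -0.56, and 8 fell without young control 3. Between old and young controls 5 of the same genes fell and 0 rose, with a median of -0.39. The lower genes Mt2, Per1, Cebpd and Angptl4 also belong to other lists given here, so the counts of these lists are not independent. Glucocorticoids are adrenal hormones that follow the daily rhythm and stress, and the labels used here give no hour of collection. Mt2, a metal-binding metallothionein, read 13.93, 14.44, 13.39, 13.35 and 13.60 in young hearts and 12.06, 12.13, 12.21, 12.35 and 11.84 in supplemented hearts. The groups did not overlap, and its difference of -1.63 ± 0.20 (adjusted p = 1.8e-05) was called in both covariate fits. Zbtb16, a zinc finger transcription factor gene, fell by 1.08 ± 0.28 (adjusted p = 0.019), a call lost without alpha-tocopherol heart 5. Named after their values were seen, Fkbp5, a co-chaperone of the glucocorticoid receptor (-1.44 ± 0.38), Ddit4, an inhibitor of mTORC1 (-1.29 ± 0.24), and the kinase gene Sgk1 (-1.01 ± 0.19) were lower as well. The Fkbp5 call was lost without young control 3 or alpha-tocopherol heart 3. With the hybridization control covariate 2 members were called lower, and with the 18S covariate 2.

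Among immediate early genes, which cells switch on within minutes of a stimulus, 6 of 19 fell and 0 rose, with a median of -0.44. Egr1, a zinc finger factor of this class, read 11.13, 10.80, 11.35, 11.10 and 10.80 in young hearts and 10.24, 10.10, 9.95, 9.32 and 8.33 in supplemented hearts (-1.45 ± 0.27, adjusted p = 0.0016). All supplemented hearts were lower, and they spread over a wider range than the young. Cebpd (-0.97 ± 0.22) and Cebpb (-0.90 ± 0.21), a pair of leucine zipper factors of inflammation and metabolism, fell together. Of 15 clock genes 4 fell and 2 rose, and 1 rose without any 1 of young controls 1, 3 and 4 and alpha-tocopherol hearts 2 and 4. Per1, a repressor of the clock loop, read 10.55, 10.45, 10.52, 10.66 and 10.82 in young hearts and 9.17, 8.49, 8.08, 9.52 and 9.92 in supplemented hearts. Its difference was -1.56 ± 0.33 (adjusted p = 0.0046). The related nuclear receptor genes Nr1d2 and Nr1d1, both repressors in the clock, moved in opposite directions, at -1.01 ± 0.20 and 0.98 ± 0.18. Dbp, a clock output gene, read -0.60 ± 0.30 and was not called.

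Per1 is switched on by clock factors that bind E-boxes, so a stretch of 120 bases around the E-box in 1 of its 2 listed promoters is given (RefSeq, GRCm38.p6, plus strand, chr11:69098726-69098845), 5′ to 3′, with CACGTG in capitals.
Per1: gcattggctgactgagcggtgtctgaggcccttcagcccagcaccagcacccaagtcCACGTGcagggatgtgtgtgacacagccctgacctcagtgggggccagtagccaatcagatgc
The E-box begins 166 bases before the start. CACGTG, which reads the same on both strands, was found in 6.02% of the 32851 promoter windows, so these letters are common. The window of the other Per1 start does not hold them.

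**Figure D3:**
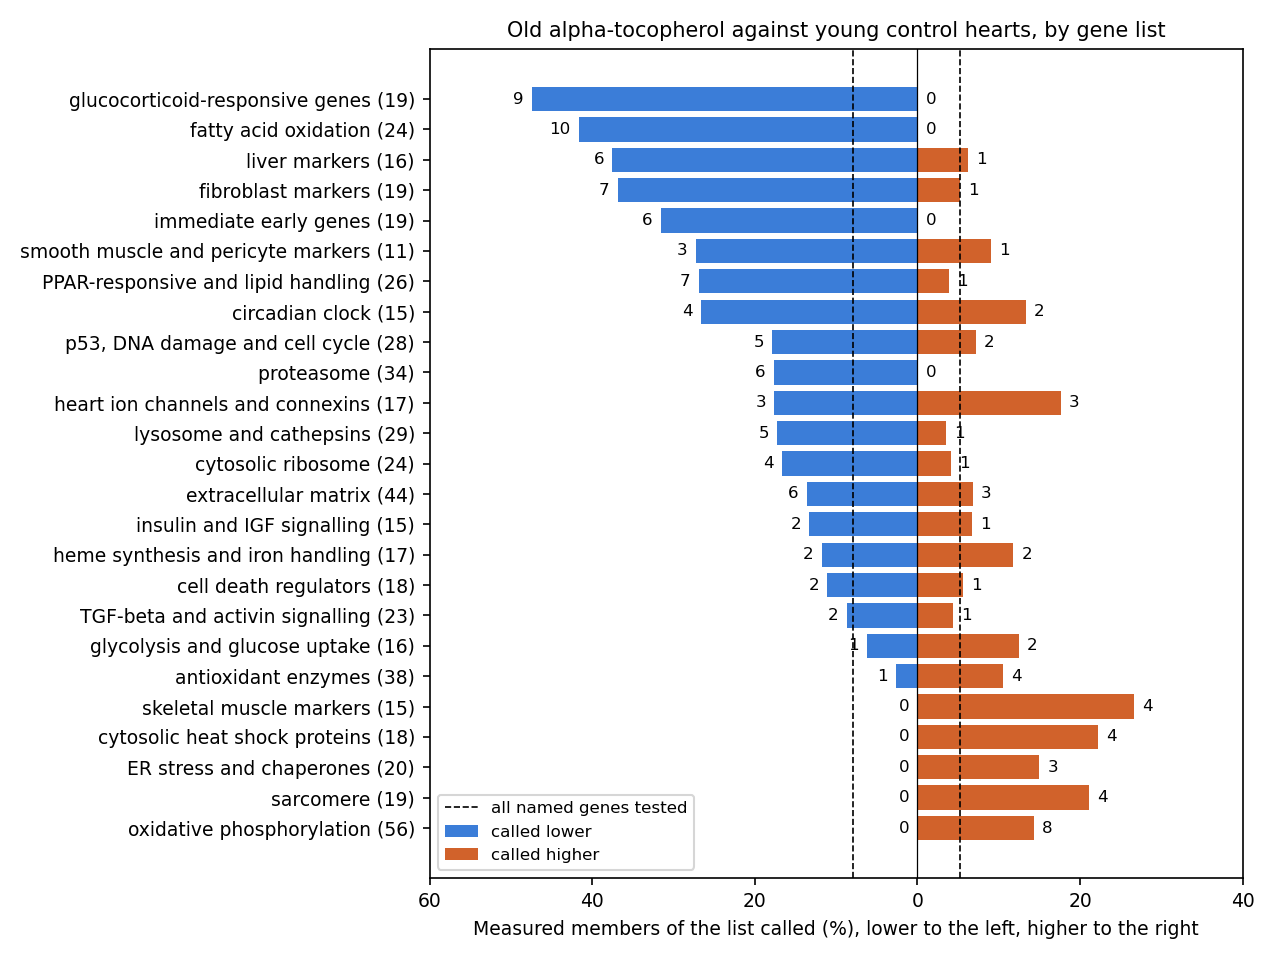
Share of measured members called lower (left) or higher (right) in old alpha-tocopherol against young control hearts, for each gene list with at least 3 called members; numbers at the bars are genes called, numbers in parentheses are members measured, and dashed lines are the shares of all named genes (7.98% lower, 5.26% higher). Glucocorticoid-responsive (9 of 19) and fatty acid oxidation genes (10 of 24) have the highest shares called lower.

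Sesn1, a stress-induced inhibitor of mTORC1 and a p53 target, read 13.32, 13.46, 13.32, 13.79 and 13.56 in young hearts and 12.29, 11.94, 12.22, 12.11 and 12.21 in supplemented hearts (-1.34 ± 0.14, adjusted p = 3e-06). Old controls lay between these groups, at 12.77 to 13.06, without overlapping either. Of 28 genes of the p53, DNA damage and cell cycle list 5 fell and 2 rose. Without young control 4 or alpha-tocopherol heart 2, 1 rose. Gadd45a, a growth arrest gene, fell by 0.88 ± 0.25 (adjusted p = 0.028), a call lost in 4 of 10 fits without 1 animal (young controls 1 and 2, alpha-tocopherol hearts 1 and 4). Ccnd1, the G1 cyclin D1, rose by 0.81 ± 0.14 and was higher in old controls too (1.03 ± 0.14). Cdkn1a, the cell cycle inhibitor p21, read -0.14 ± 0.23 and was not called. Eif4ebp1, a translation repressor held in check by mTORC1, fell by 0.91 ± 0.13 (adjusted p = 0.00011). Igfbp6, a binding protein for insulin-like growth factors, fell by 1.36 ± 0.30, while Igf2r, the receptor that clears Igf2, rose by 0.66 ± 0.14.

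Protein turnover genes fell in part. Of 34 proteasome genes 6 fell and 0 rose, yet the list's median was 0.01, so the others lay on both sides of 0. Without any 1 of young controls 3 and 4 and alpha-tocopherol heart 3, 4 fell. Psma4, a subunit of the catalytic core, read 12.90, 12.84, 12.91, 13.30 and 13.06 in young hearts and 12.49, 12.54, 12.48, 12.43 and 12.12 in supplemented hearts (-0.59 ± 0.10, adjusted p = 0.00092). Psmb6, a catalytic subunit, fell by 0.63 ± 0.13. Of 29 lysosomal genes 5 fell and 1 rose, with a median of -0.25, and 3 fell without young control 4 or alpha-tocopherol heart 2. The rise was lost in 4 of 10 such fits. The membrane protein gene Cd63 (-0.72 ± 0.11) and the asparaginyl protease gene Lgmn (-0.67 ± 0.13) were among the lower ones. Of 24 cytosolic ribosomal protein genes 4 fell and 1 rose. Rps28 was the one that rose, at 0.37 ± 0.10, and its 2 other probe sets read -0.18 and 0.58, so its direction is uncertain. Its call was lost without young control 4 or alpha-tocopherol heart 3.

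Fibroblast and matrix genes are read against 7.98% of all named genes lower and 5.26% higher, and their rises were near that background. Of 19 fibroblast markers 7 fell and 1 rose (median -0.30), 4 fell without young control 4, and their summed intensity lay between 103214 and 145873 in supplemented hearts and between 125826 and 153579 in young hearts. Of 44 extracellular matrix genes 6 fell and 3 rose. Leaving out 1 animal gave 3 lower without young control 5, alpha-tocopherol heart 2 or 3, and 5 higher without alpha-tocopherol heart 3. Col3a1, the type III collagen chain, read between 10.86 and 11.64 in young hearts, between 9.57 and 10.42 in 4 supplemented hearts and 11.53 in the other one, which lay inside the young range. The call (-0.90 ± 0.26, adjusted p = 0.033) was lost in 7 of 10 fits without 1 animal. Col1a1, a chain of type I collagen, read 0.19 ± 0.18 and was not called. Timp2, an inhibitor of matrix metalloproteinases, fell by 0.79 ± 0.13, from 11.22 to 11.63 in young hearts to 10.27 to 10.87. Loxl1, which cross-links elastin, rose by 1.22 ± 0.15 (adjusted p = 1.4e-05), with ranges of 9.93 to 10.45 and 10.99 to 11.69. Pdgfra, the receptor that marks fibroblasts, read -0.90 ± 0.23 (adjusted p = 0.015), a call lost without young control 4, with a second probe set at 0.47.

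Markers of other tissues also differed. Alb, the liver's albumin, read 11.18, 10.11, 12.50, 10.96 and 7.56 in young hearts and 8.17, 7.39, 7.62, 6.83 and 7.71 in supplemented hearts (-2.92 ± 0.64, adjusted p = 0.0063). Young control 5 lay within the supplemented range, so the young hearts varied among themselves by more than the groups differed. Of 16 liver markers 6 fell and 1 rose, and without young control 3 these counts were 3 and 0; 3 fell without young control 1 too. The urinary protein genes Mup5 (-2.15 ± 0.44) and Mup3 (-1.31 ± 0.36) belong to a family of near-identical copies whose signals may be shared, and the Mup3 call was lost without young control 1 or 3 or alpha-tocopherol heart 5. Of 15 skeletal muscle markers 4 rose and 0 fell. The sum over all 23 such markers on the array, dim ones included, lay between 78548 and 92491 in supplemented hearts. It lay between 53360 and 71049 in young hearts and between 77787 and 96496 in old controls. Myh4, a fast skeletal myosin, rose by 1.09 ± 0.23 (adjusted p = 0.0051), and Myl1, a light chain of fast muscle, by 0.79 ± 0.16. The part of neighbouring tissue in these differences was not tested. Of 8 T cell and 7 B cell markers measured 0 were called, and of 19 endothelial markers 1 rose and 1 fell.

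Old control hearts were set beside the supplemented ones. Both comparisons use the same 5 young hearts, so a resemblance between them is no independent evidence, and the test of their difference is alpha-tocopherol against old controls. Ucp3 (-2.32 ± 0.19 with alpha-tocopherol and -2.01 ± 0.19 in old controls), Angptl4 (-1.70 and -1.83), Mt2 (-1.63 and -1.44) and Cpt1a (-1.61 and -1.04) were lower than young in both, and alpha-tocopherol and old control hearts did not pass the test against each other. The estimates of that last difference were -0.31 ± 0.19, 0.13 ± 0.14, -0.18 ± 0.20 and -0.57 ± 0.22. Kcnk1, a background potassium channel gene, was likewise higher in both (1.03 ± 0.20 and 1.00 ± 0.20).

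For other genes the supplemented hearts lay nearer to young hearts than old controls did. Apart from Myh7, the genes given here were among the largest called differences between old and young controls. The test between old groups uses the same old control values, so this choice tilts it towards such a result. Myh7, the slow cardiac myosin, read 16.33, 16.09, 15.47, 15.77 and 15.73 in young hearts, 14.61, 15.23, 14.85, 15.20 and 14.41 in old controls, and 15.61, 15.98, 15.98, 15.85 and 15.82 with alpha-tocopherol. Its difference from young hearts was -0.03 ± 0.20 with alpha-tocopherol and -1.02 ± 0.20 in old controls (adjusted p = 0.0054). The 2 old groups differed by 0.99 ± 0.20 (adjusted p = 0.0021). The other Myh7 probe set read -0.13 against young hearts with alpha-tocopherol. Its old control reading is not given here, so the fall in old controls rests on 1 probe set. Sh3bgr, an SH3-binding protein gene of heart and skeletal muscle, was called in old controls (1.27 ± 0.12, adjusted p = 1.1e-06) but not with alpha-tocopherol (0.32 ± 0.12, adjusted p = 0.10). The 2 old groups differed by -0.94 ± 0.12 (adjusted p = 3.6e-05). Its 2 other probe sets read -0.21 and -0.05 against young hearts with alpha-tocopherol. Their old control readings are not given here, so the Sh3bgr rise in old controls also rests on 1 probe set. Mrps22, a mitochondrial ribosomal protein gene, gave -0.02 ± 0.20 against 1.19 ± 0.20 (adjusted p = 0.00034 for the old groups' difference of -1.21 ± 0.20). Alas1, the first enzyme of heme synthesis, was higher than young in both, by 0.67 ± 0.10 with alpha-tocopherol and 1.16 ± 0.10 in old controls. Its supplemented hearts read 14.34, 14.36, 14.53, 14.18 and 14.39, above all young hearts (13.42 to 13.97) and below all old controls (14.63 to 15.06), and the old groups differed by -0.49 ± 0.10 (adjusted p = 0.0018). Acot1 and Plin4 were lower than young in both, and higher with alpha-tocopherol than in old controls by 0.84 ± 0.20 (adjusted p = 0.0065) and 0.68 ± 0.18 (adjusted p = 0.012). Camk2b, a CaM kinase II subunit gene, read 0.78 ± 0.30 with alpha-tocopherol and 1.48 ± 0.30 in old controls, but the difference between old groups, -0.70 ± 0.30, did not pass the test (adjusted p = 0.13). The differences called between old groups here were all called in every fit without 1 animal. That of Sh3bgr, from 1 probe set, was called in both covariate fits, and those of Myh7, Mrps22, Alas1, Acot1 and Plin4 in neither. With the hybridization control and 18S covariates the estimates were 1.04 and 0.74 for Myh7 and -0.78 and -1.31 for Mrps22. They were -0.58 and -0.59 for Alas1, 0.71 and 0.63 for Acot1, and 0.30 and 0.86 for Plin4.

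**Figure D4:**
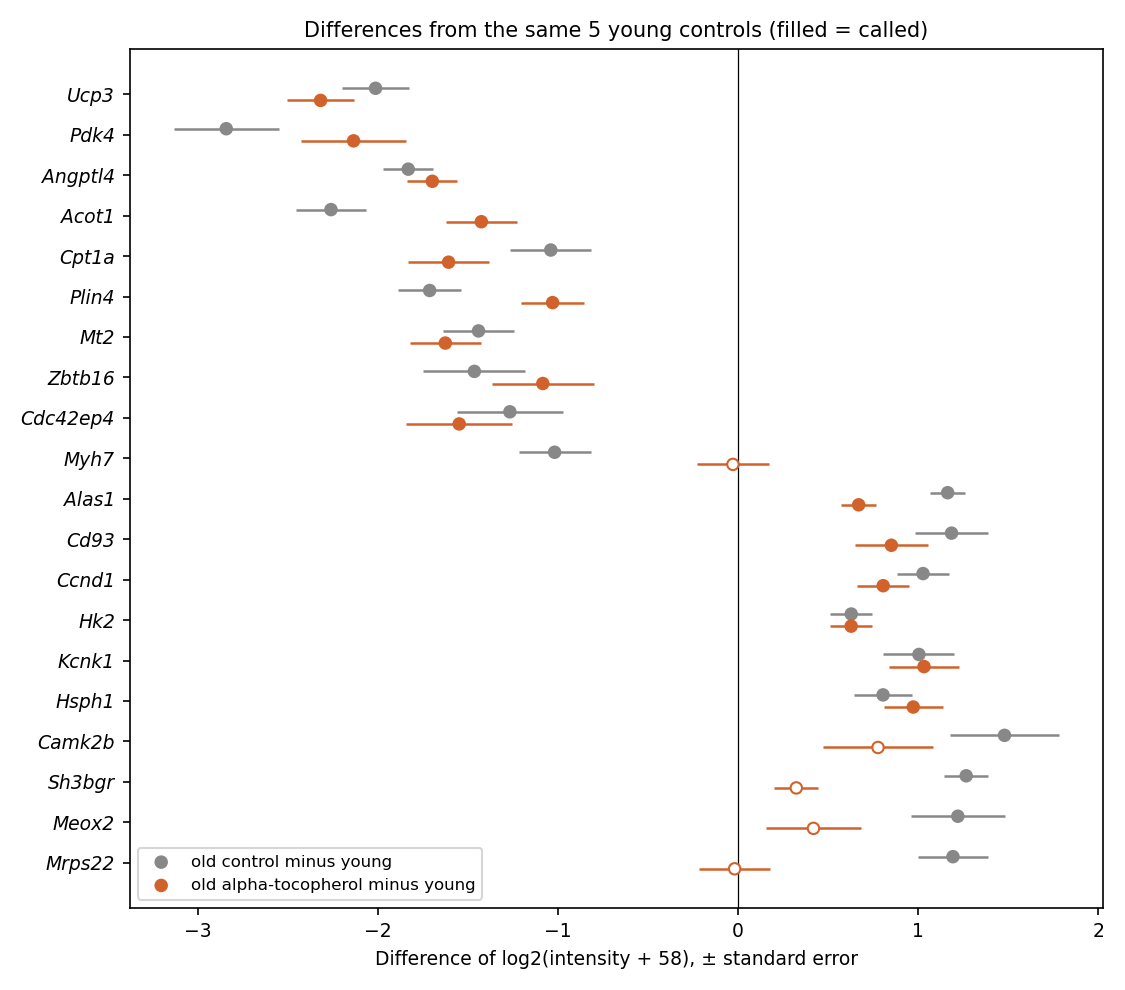
Differences of log2(intensity + 58) from the same 5 young control hearts, ± standard error, for 20 genes: orange for old alpha-tocopherol hearts, grey for old controls, filled where called. Myh7 and Mrps22 lie near 0 with alpha-tocopherol (-0.03 and -0.02) and at -1.02 and 1.19 in old controls, while Ucp3, Angptl4 and Mt2 lie far below 0 in both.

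Still other genes were called against young hearts with alpha-tocopherol and not in old controls, and the old groups differed from each other in the test. These genes were named for their large falls with alpha-tocopherol. The test between old groups uses the same alpha-tocopherol values, so this choice tilts it as well. Tnk2, a non-receptor tyrosine kinase gene, read 9.07, 9.74, 10.71, 9.85 and 9.49 in young hearts and 7.32, 7.46, 7.55, 7.23 and 6.94 in supplemented hearts. The lowest of these lay below the 10th percentile of its array, 6.966. Such dim readings limit how well the size of the Tnk2 fall is known. Tnk2 fell by 2.47 ± 0.28 (adjusted p = 9.5e-06), against -0.31 ± 0.28 in old controls, and the old groups differed by -2.16 ± 0.28. Rnh1, an inhibitor of ribonucleases, fell by 1.49 ± 0.18, against -0.39 ± 0.18 in old controls, while its other probe set read -0.11. Gna11, a G protein alpha subunit gene, fell by 1.88 ± 0.36, against -0.33 ± 0.36 in old controls. Its lowest supplemented heart, at 6.90, also lay below the 10th percentile of its array, 6.966. The old groups differed at Rnh1 by -1.10 ± 0.18 and at Gna11 by -1.55 ± 0.36, both called. Between old groups, Rnh1 and Gna11 were called with neither covariate, and Tnk2 with 18S alone. With the hybridization control and 18S covariates the estimates were -1.305 and -0.74 for Rnh1. They were -1.74 and -2.05 for Gna11 and -1.74 and -2.53 for Tnk2. The array measures that set the alpha-tocopherol arrays apart move with all of these differences.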

How the data were processed

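Per the labels' protocols, RNA of frozen hearts was enriched for polyadenylated RNA and labelled for 1-colour oligonucleotide arrays, and sample groups came from the labels. The authors deposited linear intensity values for 12488 probe sets on each of 20 arrays; the program behind them was not given in the labels or file header. Leaving out 2% of values at either end, the mean of every array was 1501 to 1501.1, so arrays had been scaled to each other; detection calls were not used here. This scaling was kept, and log2(intensity + 58) was taken without a brightness filter. After 66 control probe sets were left out, group means of all 4 groups were fitted to the other 12422 with limma 3.58.1 in R 4.3.3 (eBayes with trend and robust set, residual df 16). Differences had a standard error of 0.241 in the median probe set, a precision limited by how many arrays there are. The platform annotation gave 1 gene symbol for 10833 of these probe sets, more than 1 for 396 and no symbol for 1193; 10817 matched a RefSeq table (GRCm38.p6), with 0 symbols changed.

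A gene stands for its brightest probe set with 1 symbol, if above the 40th percentile. Named were the 15 highest and 15 lowest called differences from young hearts, the 6 highest and 6 lowest of old controls, the 3 largest called members of each of 42 lists with at least 3 calls, and 22 further genes of interest. The members, lists and covariates were chosen with earlier results of these data known. Array measures were tested by exact permutation (scipy 1.17.1). Alternatives were other pseudocounts, filters, scalings and variance settings, array weights, 2 groups alone, a replicate block, both covariates and leaving out each animal. The labels do not say whether RNA samples were handled in separate batches. Sample numbers do not pair the hearts.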

Additional observations from a re-analysis of the deposited data

Results flagged for a closer look

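In 226 groups of 5 hearts (named genes and array measures, in alpha-tocopherol and young control hearts), 8 held 1 animal far from the other 4 by Dixon's gap ratio, with a critical value of 0.71. Chance gives such a gap in about 1 of 20 groups. In alpha-tocopherol hearts, heart 5 read 10.99 for Loxl1, against 11.51 to 11.69 in the others, and 12.12 for Psma4, against 12.43 to 12.54. Heart 3 read 10.11 for the proteasome gene Psmd14, against 10.77 to 10.83. Heart 1 read 10.27 for the smooth muscle myosin gene Myh11, against 9.10 to 9.37. In young hearts, control 4 read 8.55 for Mrps22, against 8.87 to 8.98, and 12.04 for Pdgfra, against 11.32 to 11.50. Control 2 read 10.38 for the TGF-beta receptor gene Tgfbr3, against 9.89 to 9.97, and 13.15 for Sod2, against 12.76 to 12.84. The Pdgfra call was lost without young control 4. The Psmd14 call was lost in 5 of 10 fits without 1 animal (alpha-tocopherol heart 3 and young controls 2 to 5), the Myh11 call in 6 and the Tgfbr3 call in 7.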

How the results depend on the processing

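Against young hearts 1108 probe sets were called. The count was 737 with the 2 groups fitted alone (395 lower), 122 with the hybridization control covariate (44 higher, 78 lower) and 29 with the 18S covariate (8 higher, 21 lower). Both covariates follow the group, and the cause of the lower counts was not tested. Leaving out 1 animal gave 789 to 1013 calls, 341 to 473 of them higher and 436 to 552 lower. A replicate block of sample numbers gave 1047 calls, of which 982 were shared; same-numbered hearts correlated by -0.04 at the lowest, and 0 of 5 alpha-tocopherol hearts correlated best with their own number, so they share only a number. Between old and young controls 290 were called, 601 with array weights and 213 to 310 without 1 animal. Between alpha-tocopherol and old controls 1653 were called, 79 with the hybridization control covariate, 100 with the 18S covariate and 1200 to 1575 without 1 animal. Of 90 named genes called against young hearts 61 stayed called in every alternative other than the covariates, 22 with the hybridization control covariate and 8 with 18S; 0 were called in the opposite direction. Dim probe sets limit the reading: the dimmest 40% had a median difference of 0.195 and the brighter ones -0.002.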

Other observations

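Ion channel genes moved both ways against young hearts, with 3 of 17 higher and 3 lower; 1 rose without young control 1 or alpha-tocopherol heart 2, and 1 fell in 6 of 10 fits without 1 animal. Kcna5, a potassium channel gene of the atria, fell by 0.58 ± 0.18 and was lost as a call in 7 of 10 fits without 1 animal. Kcnj8, a pore subunit of ATP-sensitive potassium channels in vessel cells, fell by 0.55 ± 0.13. In TGF-beta signalling, the transducer genes Smad2 (-0.67 ± 0.16) and Smad4 (-0.66 ± 0.16) fell among 23 genes, of which 1 rose, a call lost in 7 of 10 such fits. Of 18 cell death regulators 2 fell and 1 rose, the latter lost in 7 of 10 such fits; the pro-death gene Bcl2l11 fell by 0.87 ± 0.23, with a second probe set at 0.36, and the pro-survival gene Mcl1 by 0.52 ± 0.14. The Mcl1 call was lost in 6 of 10 such fits, and the Bcl2l11 call without young control 3 or alpha-tocopherol heart 4. The counts of the TGF-beta and cell death lists lie near the shares of all named genes, 7.98% lower and 5.26% higher. Of 17 genes of heme synthesis and iron handling 2 rose and 2 fell, with Alad, the second enzyme of heme synthesis, at -0.38 ± 0.10 and the transferrin receptor gene Tfrc at 0.51 ± 0.15. The Tfrc call was lost in 5 of 10 such fits, with array weights and with median-centred arrays, and the Alad call without young control 1 or 2, where 0 members of the list fell.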
